A study of Mus musculus with 2 samples.

Results

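Scavenger receptors and pattern-recognition lectins are the cell-surface proteins with which macrophages bind modified lipoproteins, dying cells, haemoglobin and the sugars and glycolipids of microbes. The set was chosen by gene symbol and has 10 members: Msr1, Marco, Colec12, Scarb1, Stab1, Cd163, Clec7a, Clec4n, Clec4e and Clec4d. Values for 9 of them were read from a table of 15576 genes, and Clec7a was not analysed here. The data are messenger RNA levels in mouse bone marrow-derived macrophages (BMDMs), macrophages grown in culture from marrow progenitors. The series has 2 libraries. The DCA library came from BMDMs given 100 µM deoxycholic acid, a bile acid that gut bacteria make from a primary bile acid of the liver, for 24 h, and the NC library from BMDMs without it. The labels do not settle if the cells were harvested at that point or 1 day on. The labels describe the mice as wild type and give no strain, age, sex, vehicle or number of animals behind each library.

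Scavenger receptors are grouped into classes by structure. Class A members (Msr1, Marco, Colec12) are collagen-like trimers that take up acetylated or oxidised lipoproteins and bacteria. Scarb1 of class B binds high-density lipoprotein, Stab1 is a large endocytic receptor for altered self-proteins, and Cd163 takes up haptoglobin-bound haemoglobin. The C-type lectins of the Dectin-2 group, Clec4n (Dectin-2), Clec4e (Mincle) and Clec4d (MCL), bind fungal mannans or mycobacterial glycolipids and signal through the adaptor FcRγ and the kinase SYK. In macrophages many of these receptors clear debris in the resting state, whereas Mincle is known as a gene induced by inflammatory stimuli.

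The libraries differed little in these genes. The lectin Clec4d was the most abundant member and was nearly level between the libraries, while Stab1 and Msr1 were about 9% lower in DCA and Clec4e was about 6% higher. Scarb1, Clec4n and Colec12 were 3 to 5% lower, and the counting intervals of these 3 genes included equality. Cd163 was at almost the same low level in both libraries, and Marco rested on a few reads. With 1 library per group there is no replicate check, so the spread between cultures is unknown for every difference. The ratios below are DCA over NC, with 95% Clopper-Pearson intervals that cover counting error only and compare 2 libraries, not 2 conditions.

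The table gives FPKM, a read count scaled by gene length and sequencing depth. The length in that unit was found to add up every annotated transcript of a gene, and it is 1.19 (Marco) to 3.97 times (Clec4n) the length of the merged exons among the members. The deposited FPKM of different genes therefore cannot be compared, and levels are compared here as reads per kilobase of merged exons and 1e6 reads (merged-exon level). Read totals were inferred from the FPKM, as the smallest that turn the values of low genes into whole reads. They were 59.2 M reads (M, 1e6) for NC and 56.6 M for DCA. The label of macrophages was checked against 14 markers. All 14 were detected, at merged-exon levels in NC from 11.3 for Mertk to 936 for Lgals3. Lgals3 had 873 in DCA, and Cd68 had 881 in NC and 882 in DCA. RNA of other marrow cells was present too. On the same scale the neutrophil genes S100a8 and S100a9 had 1207 and 2905 in NC, and the B-cell gene Cd79a 60.4. Of 8 markers of stromal cells none reached a mean of 1 FPKM, and Pdgfra and Dcn were listed at 0 in both libraries.

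**Figure D1:**
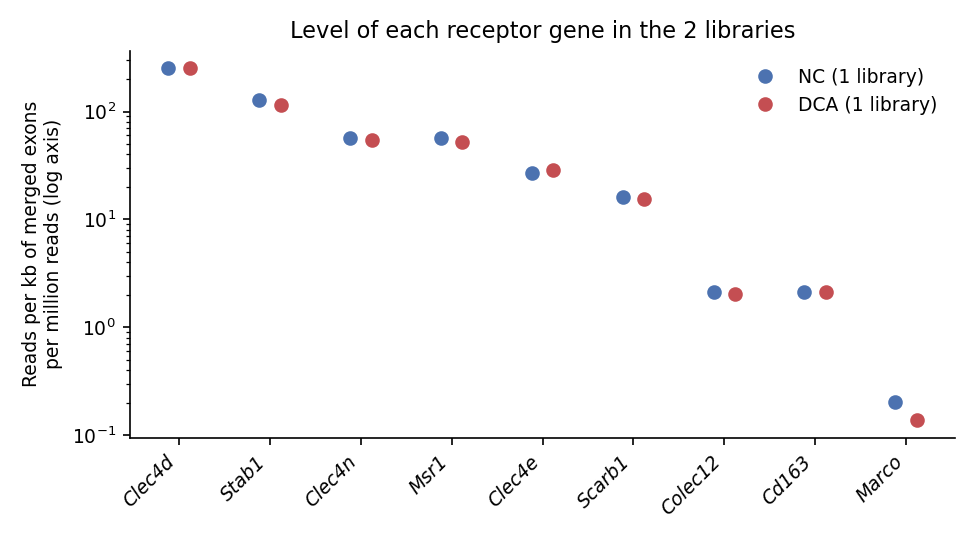
Merged-exon level (reads per kilobase of merged exons and 1e6 reads, log axis) of 9 receptor genes, with 1 point per library for NC and DCA. Clec4d is highest at about 251 and Marco lowest, and the points of a gene lie close together compared with the distance between most genes.

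On the merged-exon scale the members covered a wide range of levels. Clec4d had 251.4 in DCA and 251.2 in NC, a level above that of 98.98% of the tested genes. Stab1 came next, with 116 in DCA and 128 in NC. Clec4n and Msr1 were neighbours with 56.9 and 56.8 in NC, a ratio of 1.003 that leaves their order in NC undecided, and had 54.9 and 51.8 in DCA. Clec4e followed at 29.0 in DCA and 27.2 in NC, and Scarb1 at 15.5 and 16.0. Colec12 and Cd163 were near the low end, at 2.04 and 2.12 in DCA and 2.14 and 2.12 in NC, and their order differed between the libraries. Marco had 0.138 in DCA and 0.202 in NC. The order of the other members was the same in both libraries. Merged exons include those of minor transcripts, so a gene that uses short transcripts is still shown too low.

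Of the 9 members, 7 had a mean FPKM of at least 1 and were set beside the 9656 genes that passed this filter. Cd163, with a mean of 0.998 FPKM, fell just under it, and Colec12, with 1.43, lay just above it. On the log2(FPKM + 1) scale, which understates the ratios of low genes, 5 of the 7 were lower in DCA and 2 were higher, where 46.5% of all tested genes were lower and 53.5% higher. The median difference of the 7 was -0.043, against 0.0067 for all tested genes. No member was 1.1-fold apart on this scale, where 8.99% of all tested genes passed that fold on the higher side and 4.79% on the lower side. Stab1 lay at that limit and passed it with a pseudocount of 0.1 and under both rescalings of the libraries, and Msr1 passed it when each library was rescaled to 1e6. The counting interval lay below 1 for Stab1 and Msr1 and above 1 for Clec4e. That is 2 of 7 below and 1 of 7 above, where 20.1% of the tested genes with rebuilt reads lay below and 25.6% above. These shares lie near the background and are not a result about the members.

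**Figure D2:**
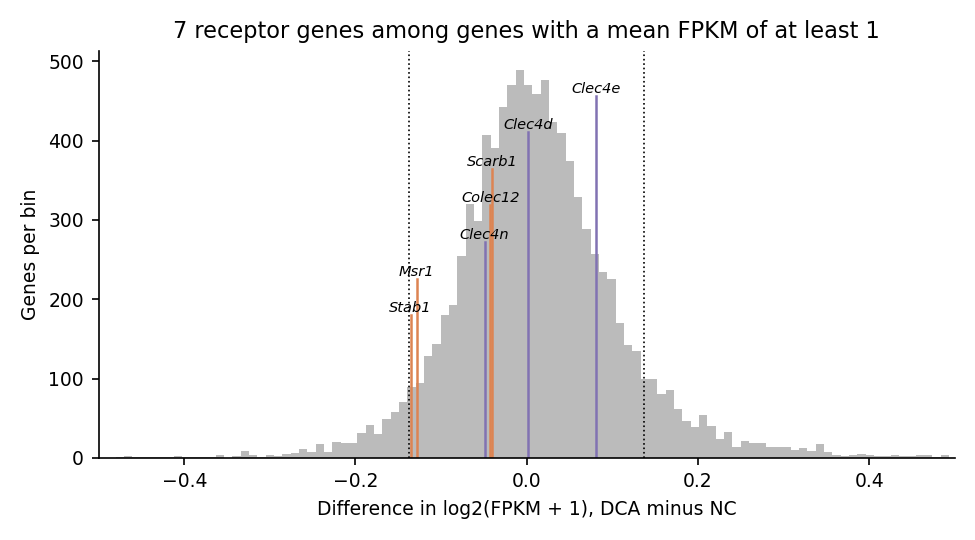
Histogram of log2(FPKM + 1) in DCA minus that in NC, over genes averaging 1 FPKM or more, with the 53 genes beyond 0.5 in either direction not drawn, and lines at the 7 receptor genes that passed the filter. Dotted lines mark 1.1-fold. Stab1 and Msr1 lie just inside the lower dotted line, Clec4d near 0, and Clec4e above 0 within the bulk of the genes.

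The class A receptor gene Msr1 encodes scavenger receptor A, a major route for modified low-density lipoprotein into macrophages (ENSMUSG00000025044, GRCm38 chromosome 8, 39581685 to 39642673, minus strand). It had 41.3 FPKM in NC and 37.7 in DCA (21332 and 18602 reads). The value was lower in DCA, with a ratio of 0.913 (95% interval 0.895 to 0.931). Its log2 difference of -0.13 was lower than that of all but 5.65% of the tested genes. No tested gene lay within 500 kb of Msr1, and its exons overlapped no other gene. Colec12, a collagen-containing lectin also counted in class A (ENSMUSG00000036103, chromosome 18, 9707595 to 9882644, plus strand), had 1.46 FPKM in NC and 1.39 in DCA (1106 and 1005 reads). Its ratio of 0.951 (0.872 to 1.04) lay on the same side as that of Msr1, but the interval included equality. Stromal cells also express Colec12. The summed merged-exon level of the 8 stromal markers was 0.781 in DCA and 0.489 in NC, where Colec12 had 2.04 and 2.14. The part of stromal cells in the value of Colec12 was not tested. Marco, a receptor for unopsonised particles that is known from alveolar and marginal zone macrophages (ENSMUSG00000026390, chromosome 1, 120474538 to 120505024, minus strand), had 0.169 FPKM in NC and 0.116 in DCA. These values rest on 23 and 15 reads, too few to detect a difference of this size (ratio 0.683, 0.331 to 1.37). The summed merged-exon level of the class A genes was 54.0 in DCA and 59.1 in NC, almost all of it from Msr1.

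Stab1 encodes stabilin-1, a class H receptor that takes up altered self-proteins such as oxidised lipoprotein (ENSMUSG00000042286, chromosome 14, 31139013 to 31168641, minus strand). It had 51.1 FPKM in NC and 46.4 in DCA (77706 and 67451 reads), the most of any member. The value was lower in DCA, with a ratio of 0.908 (0.899 to 0.918), and its log2 difference of -0.14 was lower than that of all but 4.97% of the tested genes. Exons of Nt5dc2, a gene with a ratio of 0.940, share 112 of the 10288 exonic bases of Stab1 (1.09%). The ratio of Stab1 was within counting error of that of Msr1, with a quotient of 0.995 (0.974 to 1.02). Among the 17 tested genes within 500 kb of Stab1, 8 were lower and 9 higher, with a median ratio of 1.01. Over all tested genes 46.5% were lower and 53.5% higher. Stab2, a relative of Stab1 and a receptor of sinusoidal endothelium, was at 0.0346 FPKM in NC and 0.0303 in DCA.

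The 250 bases upstream of the start of Stab1 are shown because this is the member with the most reads behind a lower value, and they can be set against those of 2 lectin genes below. The sequence is from RefSeq on GRCm38.p6, chr14:31168642-31168891, minus strand. Capitals mark matches to 4 motifs searched on both strands: GAGGAA, the core of sites of the myeloid factor PU.1, TGANTCA of AP-1, CACGTG, the E-box bound by MITF and TFE factors, and TTGCNNAA of C/EBP factors.
Stab1: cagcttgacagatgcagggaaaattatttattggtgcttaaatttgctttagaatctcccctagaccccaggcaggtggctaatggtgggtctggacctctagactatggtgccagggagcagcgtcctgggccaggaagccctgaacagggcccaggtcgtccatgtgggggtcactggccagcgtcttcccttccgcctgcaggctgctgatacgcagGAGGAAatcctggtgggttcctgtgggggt
The window held 1 match, a PU.1 core whose first base lies 30 bases upstream of the start. Of 32851 RefSeq promoter windows of this length, 23.3% held that core, 6.75% the AP-1 motif, 6.02% the E-box and 9.56% the C/EBP motif. A match of letters is a description and does not show that a factor binds.

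Scarb1, the class B receptor that exchanges cholesterol with high-density lipoprotein (ENSMUSG00000037936, chromosome 5, 125277087 to 125341094, minus strand), had 8.53 FPKM in NC and 8.27 in DCA (8063 and 7465 reads). The libraries were close, and the interval of the ratio reached just past equality (0.969, 0.939 to 1.0001). Set against Stab1, the ratio of Scarb1 was nearer to 1, since the quotient of Stab1 over Scarb1 was 0.938 (0.907 to 0.969). Cd163, the haemoglobin receptor of mature tissue macrophages (ENSMUSG00000008845, chromosome 6, 124304656 to 124330527, plus strand), had 0.998 FPKM in NC and 0.997 in DCA (687 and 656 reads). The libraries did not differ detectably, and counting error leaves room for a ratio from 0.897 to 1.11. Taken as a sum, the 6 scavenger receptor genes had a merged-exon level of 205 in NC and 188 in DCA. The ratio of 0.916 is set mostly by Stab1 and Msr1, which had 116 and 51.8 in DCA. The 3 lectin genes summed to 335.4 and 335.3, a ratio of 0.9998 that is set mostly by Clec4d.

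**Figure D3:**
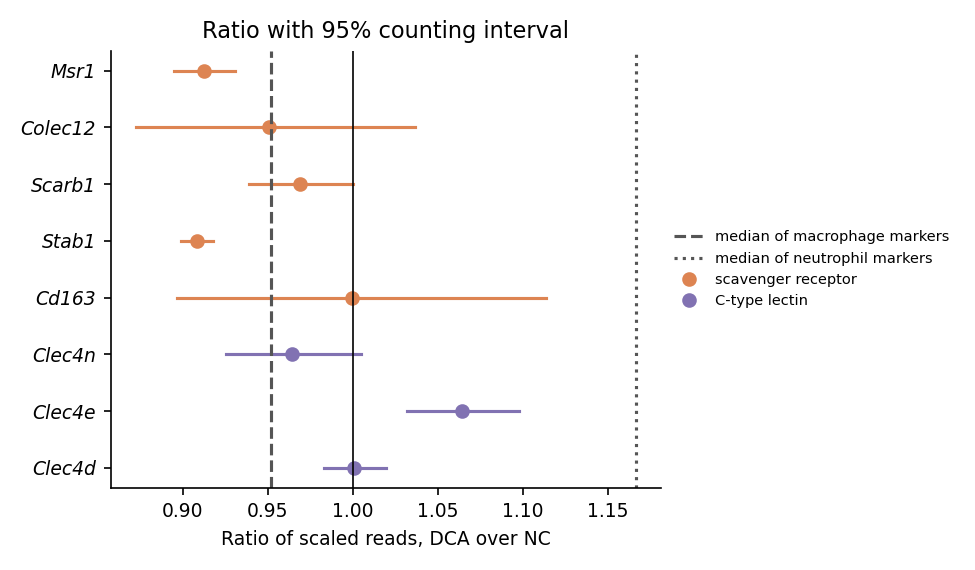
Ratio of scaled reads, DCA over NC, for 8 receptor genes (Marco, at 0.683 with a wide interval, is left out), with 95% counting intervals as bars. The dashed line is the median of the macrophage markers (0.952) and the dotted line that of the neutrophil markers (1.17). The intervals of Msr1 and Stab1 lie below 1 and that of Clec4e above 1.

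The 3 lectin genes lie side by side on chromosome 6 within 60028 bases, with Clec4e higher in DCA, Clec4d level and Clec4n lower within counting error. Clec4d and Clec4e point towards each other with 6523 bases between them, and Clec4n lies 15089 bases before Clec4d. Clec4d (ENSMUSG00000030144, 123262111 to 123275265, plus strand) encodes MCL, a partner of Mincle at the cell surface. It had 142.1 FPKM in NC and 142.3 in DCA (23781 and 22743 reads). The libraries were level, with a ratio of 1.001 (0.983 to 1.02), and the small log2 difference of 0.0013 turned negative under both rescalings of the libraries, reaching -0.012 with each summed to 1e6. Clec4e (ENSMUSG00000030142, 123281789 to 123289870, minus strand) encodes Mincle, a receptor for mycobacterial cord factor and for a nuclear protein set free by dead cells. It had 8.95 FPKM in NC and 9.52 in DCA (8000 and 8136 reads). This was the only member with an interval above 1, at a ratio of 1.06 (1.03 to 1.098), and 80.4% of the tested genes had a lower log2 difference than its 0.081. Clec4n (ENSMUSG00000023349, 123229843 to 123247021, plus strand) encodes Dectin-2, a receptor for fungal mannans. It had 14.4 FPKM in NC and 13.8 in DCA (4787 and 4410 reads), a ratio of 0.964 (0.925 to 1.005). The value was lower in DCA by less than counting error. Within the pair of MCL and Mincle, the ratio of Clec4e was above that of Clec4d by a factor of 1.06 (1.03 to 1.102), and Clec4e was above Clec4n by 1.104 (1.05 to 1.16). Against Stab1 the factor for Clec4e was 1.17 (1.134 to 1.21). These intervals, too, cover counting error only.

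The upstream windows of the 2 lectin genes that point towards each other are given for comparison with Stab1, with the same motifs in capitals. They are from RefSeq on GRCm38.p6, chr6:123261857-123262106, plus strand, and chr6:123289872-123290121, minus strand.
Clec4d: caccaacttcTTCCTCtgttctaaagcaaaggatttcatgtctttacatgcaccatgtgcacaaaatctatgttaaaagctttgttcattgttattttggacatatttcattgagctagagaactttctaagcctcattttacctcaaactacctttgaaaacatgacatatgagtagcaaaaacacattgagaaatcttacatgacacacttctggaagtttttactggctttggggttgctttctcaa
Clec4e: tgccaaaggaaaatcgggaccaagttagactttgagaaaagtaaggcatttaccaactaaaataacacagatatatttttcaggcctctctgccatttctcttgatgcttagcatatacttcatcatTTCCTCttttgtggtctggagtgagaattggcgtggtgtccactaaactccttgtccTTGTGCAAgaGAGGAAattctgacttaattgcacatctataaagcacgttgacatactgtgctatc
The Clec4d window held 1 PU.1 core, starting 240 bases upstream. The Clec4e window held 2, at 123 and 56 bases, and 1 C/EBP motif at 66 bases. None of these matches overlap each other, and neither window held the AP-1 motif or the E-box. The windows also differed in base composition, with 35.2% G and C for Clec4d, 39.6% for Clec4e and 57.2% for Stab1. The windows of Marco and Cd163 were searched too and are not shown. Marco held 1 PU.1 core, starting 146 bases upstream, and Cd163 held 0 matches to any of the motifs. Msr1, Scarb1, Colec12 and Clec4n were not searched, so the core is not described for the set as a whole.

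Neighbouring genes of this cluster were described by a window of 500 kb, chosen after the data had been seen. Over all tested genes 46.5% were lower and 53.5% higher. Of the 11 other tested genes around Clec4d, which include Clec4n and Clec4e, 5 were lower and 6 higher. Their ratios went from 0.911 for Necap1, an endocytosis factor, to 1.28 for the lectin Clec4a4, which rests on 205 reads in DCA and 167 in NC (1.04 to 1.59). C3ar1, the receptor for the complement fragment C3a, was at 171 FPKM in NC and 156 in DCA, a ratio of 0.915 (0.902 to 0.927). Clec4a1 and Clec4a2 had ratios of 1.06 (1.02 to 1.11) and 1.03 (0.986 to 1.07), and Clec4a3 of 0.972 (0.928 to 1.02). The Clec4a and Clec4b genes are close copies of each other, so the division of reads among them is uncertain.

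**Figure D4:**
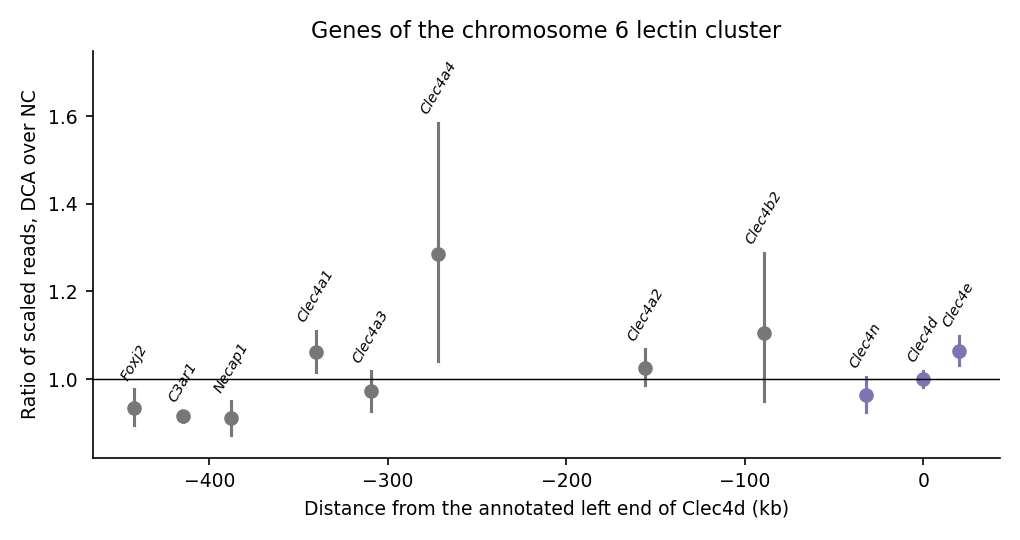
Ratio of scaled reads, DCA over NC, with 95% counting intervals, for tested genes of the chromosome 6 lectin cluster by distance (kb) from the annotated left end of Clec4d. Clec4n, Clec4d and Clec4e are in colour. Clec4n lies below 1, Clec4d at 1 and Clec4e above 1, and Clec4a4 is highest with a wide interval.

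Related genes were counted in 5 lists, beside 53.5% higher and 46.5% lower over all tested genes. Of 16 other scavenger receptors and relatives, 8 were tested, 4 higher and 4 lower, with a median log2 difference of -0.039 that lay just above 0 in 3 other settings. Of the 8, 4 had a counting interval below 1 and 2 above, against 20.1% and 25.6% of the tested genes with rebuilt reads. Cd68 of this list, and Lgals3 and Mrc1 of the lectin list below, are also counted among the macrophage markers. Cd36, the class B receptor for oxidised lipoprotein and fatty acids, had 54.4 FPKM in NC and 47.8 in DCA, a ratio of 0.878 (0.866 to 0.889), below those of Msr1 and Stab1. Cd44, a hyaluronan receptor, was at 0.914 (0.900 to 0.928), close to Msr1. Cd5l and Olr1 were at the other end, with 1.297 (1.005 to 1.68) and 1.14 (0.981 to 1.33), on 140 reads in DCA and 113 in NC for Cd5l and 356 and 326 for Olr1. Of 27 other lectin receptors 14 were tested, 7 higher and 7 lower, with a median of 0.00047. That median moved between -0.0072 and 0.042 with the settings. Of the 14, 3 had a counting interval below 1 and 5 above. The highest was Clec10a, a galactose-type lectin that dendritic cells also express, with 2.16 FPKM in NC and 3.43 in DCA (1.59, 1.47 to 1.71), followed by Clec2d at 1.11 (1.03 to 1.19). Lgals3, which encodes galectin-3, and Cd209a had the lowest differences on the log2(FPKM + 1) scale, with ratios of 0.933 (0.925 to 0.941) and 0.941 (0.872 to 1.02). The lowest ratio of the list was that of Ly75, an endocytic receptor of dendritic cells, at 0.926 (0.854 to 1.003).

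Of 20 genes of the FcRγ, SYK and CARD9 route through which the lectins signal, 19 were tested. In DCA 13 (68.4%) were higher, against 53.5% of all tested genes, and 6 were lower, with a median log2 difference of 0.044 against 0.0067 for all tested genes. The adaptor gene Fcer1g had a ratio of 1.06 (1.04 to 1.08) and Syk of 1.08 (1.06 to 1.097), while Card9 was at 0.979 (0.943 to 1.02). These 3 were named after their values were seen. By the naming rule Rubcn, a regulator of LC3-associated phagocytosis, and Traf6, a ubiquitin ligase, were highest at 1.16 (1.11 to 1.204) and 1.09 (1.05 to 1.14), and the exchange factor Vav1 and the lipid phosphatase Inpp5d lowest at 0.962 (0.939 to 0.985) and 0.967 (0.949 to 0.984). B cells also express Syk, and neutrophils Syk and Fcer1g, and markers of both cell types were higher in DCA as given below. The part of those cells in these values was not tested. Cytokine and response genes known to follow lectin ligation did not share 1 direction. Values were read for 13 of 16 genes and 6 were tested, 2 higher and 4 lower. Their median of -0.083 moved between -0.16 and -0.022 with the settings. Of the 6, 3 were at least 1.1-fold lower and 0 were 1.1-fold higher, against 4.79% and 8.99% of all tested genes. Without the filter, 6 of the 13 were higher and 7 lower. Tnf had 11.6 FPKM in NC and 9.89 in DCA (0.854, 0.801 to 0.910) and Ptgs2, cyclooxygenase 2, 1.65 and 1.34 (0.817, 0.710 to 0.938). Egr3, a zinc-finger factor, was at 1.14 (1.03 to 1.2498), and the interval of Il1b began just above equality (1.06, 1.0015 to 1.11).

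Genes that handle haem and iron after haemoglobin uptake by CD163 were lower in 14 of 14 tested genes of a list of 15, with a median log2 difference of -0.059 and 10 counting intervals below 1. Over all tested genes 46.5% were lower and 20.1% had an interval below 1. The macrophage markers lay the same way in these libraries, with 11 of 14 lower, 10 intervals below 1 and a median ratio of 0.952, against 0.958 for this list, while markers of other marrow cells were higher. The part of the cell types in the values of this list was not tested. The lowest were Slc11a1, a metal transporter of the phagosome, at 0.907 (0.892 to 0.922), and Blvrb, a biliverdin reductase, at 0.917 (0.880 to 0.956). The nearest to 1 were Blvra and Hpgd, both at 0.985, with intervals that included equality. The list also holds Hpgd, a prostaglandin dehydrogenase, and Nrf1, a factor of mitochondrial genes, which do not act on haem, and it shares Lrp1 with the scavenger receptor list. Cd163 itself stood at 0.9994, above all 14, but its interval (0.897 to 1.11) held the ratios of all 14.

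**Figure D5:**
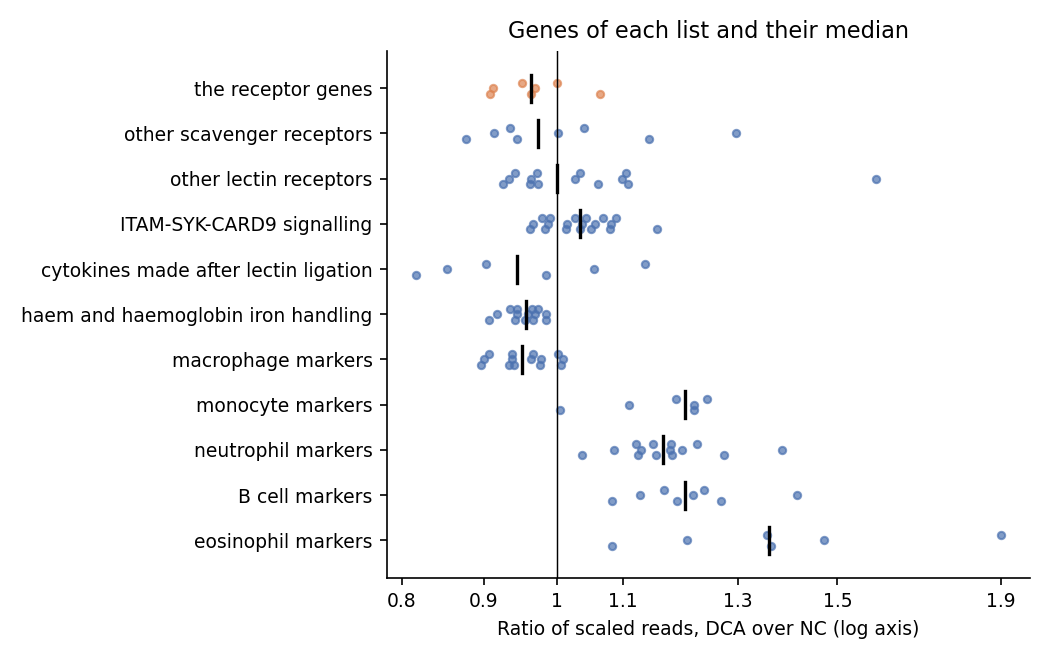
Ratio of scaled reads, DCA over NC (log axis), for each tested gene of the receptor set, of 5 lists of related genes and of 5 cell type marker lists, with a bar at each median. The receptor genes lie mostly at or below 1, near the macrophage markers, while monocyte, neutrophil, B cell and eosinophil markers lie above 1.

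Markers of cell types moved between the libraries beside these differences. As a background, 53.5% of all tested genes were higher and 46.5% lower, with a median ratio of 1.006 over those with rebuilt reads. Of 14 macrophage markers 11 were lower in DCA, with a median ratio of 0.952, a range of 0.896 to 1.01 and a summed merged-exon level of 2960 in DCA and 3073 in NC. Stab1 and Msr1, at 0.908 and 0.913, lay within that range and below its median. Clec4e, at 1.06, lay above the whole range, and Clec4d, at 1.001, within its upper end. All 14 neutrophil markers were higher (median 1.17, sum 6641 in DCA and 5645 in NC), as were all 8 tested B cell markers (1.204, sum 270 and 220), all 6 tested eosinophil markers (1.36, sum 125 and 86.0) and all 6 monocyte markers (1.2035, sum 377 and 318). Among them were S100a8 at 1.22, Cd79a at 1.27, Prg2 of eosinophil granules at 1.47 and Ly6c2 of monocytes at 1.19. Counting intervals lay above 1 for all of these neutrophil and B cell markers, and for 5 eosinophil and 5 monocyte markers. Over the tested genes with rebuilt reads, 25.6% had an interval above 1. The exceptions were Ccr3 of eosinophils at 1.08 (0.917 to 1.28) and Cx3cr1 of monocytes at 1.004 (0.976 to 1.03). Of 4 tested dendritic cell markers 3 were higher, with a median of 1.15, and Ccr7 was at 1.68. All 8 of them, low genes included, were split into 4 higher and 4 lower, and the median log2 difference went from 0.17 to 0.016 without the filter. Of 2 tested endothelial markers Pecam1 was higher, at 1.08, and Kdr lower, at 0.787. Monocytes and neutrophils are known to express Clec4d, Clec4e and Clec4n. The part of these cells in the values of the receptor genes was not tested. In bulk RNA, fewer cells of a type and less RNA per cell cannot be told apart.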

How the data were processed

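RNA sequencing gave 1 library of BMDMs with deoxycholic acid (DCA) and 1 without (NC), grouped by treatment label, with columns matched by title. The authors deposited FPKM per gene. The submitters' processing notes list, with build GRCm38, bedtools 2.17.0, DESeq2 3.0, HTSeq 0.6.0, Picard 1.126 and STAR 2.5.0c. Their roles, the strand setting and gene filters are not given there.

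Members and gene lists were chosen with earlier results of these data known. GENCODE vM21 of GRCm38 supplied 1-based coordinates, lengths and exon overlaps (either strand) for 15548 of 15576 identifiers. Read totals were fitted as the smallest that give whole reads, with summed transcript length as gene length. At these totals 96.4% of 11794 genes under 5000 reads, and all 9 members, came out as whole reads in NC and DCA alike (tolerance 0.05, chance 1%). PCR copies are not independent reads, so true counting error exceeds the intervals, which are exact for a ratio and use a normal approximation on the log scale for a quotient of 2 ratios.

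The measure was the difference in log2(FPKM + 1) where the mean FPKM was 1 or more. With 1 library per group no test was run. Python 3.11.15 and scipy 1.17.1 were used, and the scripts were tested on simulated data. The naming rule took all members, the 2 highest and 2 lowest tested genes of each related list and the 2 top markers of each cell type by level; other genes were chosen after their values were seen. Alternatives changed the pseudocount, filter, scaling, gene length, fold limit and interval level, or left out overlapping genes.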

Additional observations from a re-analysis of the deposited data

How the results depend on the processing

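No paired analysis was possible because each group has 1 library, and for the same reason no library could be left out. The median difference of the members stayed below 0 in all 9 alternatives, from -0.061 to -0.029. Msr1 ranged from -0.14 to -0.12, Stab1 from -0.15 to -0.13 and Clec4e from 0.058 to 0.089. Rescaling each library to 1e6, or NC by the median ratio, left 1 member higher in DCA. All tested genes shifted too, with 48.5% and 50.0% higher under these rescalings, in that order, against 53.5% in the main setting. Cd163 passed the filter under both rescalings, so 8 members were tested there instead of 7. The FPKM summed to 151621 in DCA and 150233 in NC, so rescaling to 1e6 raised every value. That also loosened the filter, with 11706 genes passing against 9656, and made the pseudocount weigh less. Changes of a median under this setting mix these effects with that of the scaling. Members at least 1.1-fold lower numbered 1 with pseudocount 0.1 or the median ratio and 2 after rescaling to 1e6, against 0. The share of all tested genes past that fold is not given for these settings, so these counts are not a result about the members. Without overlapping genes, which drops Stab1, 1 member had an interval below 1. The other scavenger receptors had a median of -0.082 at a mean FPKM of at least 5 and lay above 0 without overlapping genes (0.0022), with merged exon length (0.0052) and with the filter on merged-exon level (0.0038). The cytokine median was -0.16 with merged exon length or after rescaling to 1e6, -0.14 without overlapping genes or with the filter on merged-exon level, and -0.022 without a filter. The dendritic cell median was 0.016 without a filter and 0.087 after rescaling to 1e6. With pseudocount 5 the B cell median was 0.16, and at a mean FPKM of at least 5 the eosinophil median was 0.55. After rescaling to 1e6 the endothelial median was -0.32. The median of the other lectin receptors lay below 0 with pseudocount 0.1 and, at -0.0072, after rescaling NC by the median ratio, against 0.00047. It rose to 0.042 with merged exon length, 0.041 with the filter on merged-exon level, 0.035 without overlapping genes and 0.030 after rescaling to 1e6. An added alternative, chosen after seeing the data, filtered on the merged-exon level. It also let Cd163 pass and left the members' median at -0.042. Depth limits Marco most, with 15 and 23 reads, and then Cd163 and Colec12.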
